A study of Mus musculus with 8 samples.

Results

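Tubulins and the tubulin tyrosine ligase-like (TTLL) enzymes were examined in testis RNA of mice at postnatal day 23. Members were the probe sets whose gene symbol, in the deposited array table, was an alpha-, beta-, gamma-, delta- or epsilon-tubulin symbol ending in a gene number, Ttl, or Ttll with a number. This gave 33 of 22009 genes, counting genes that are matched only jointly as 1, with 77 of the 45101 probe sets of the table. Older symbols were replaced by current RefSeq ones, so that Tubb2c is given as Tubb4b and Tubb4 as Tubb4a. Each of 8 samples was hybridised to its own Affymetrix Mouse430_2 array. Of these, 5 carried the label wildtype (replicates 1, 2, 4, 6 and 7) and 3 the label of Ctcfl mutant (replicates 3, 5 and 8). CTCFL, also called BORIS, is a paralog of the zinc finger protein CTCF made in male germ cells. Mutants were Ctcfl del/del on a C57/Bl6 background. The del allele was obtained by crossing mice with a GFP knockin at Ctcfl and LoxP-flanked cassettes to Cre-expressing mice, which deleted the Ctcfl exons between the LoxP sites. The text of the study describes the controls as heterozygous Ctcfl del/+ animals of the same litters, in which case the controls carried the allele as well, whereas the labels call them wildtype. The label is used here. Levels of Ctcfl were not analysed here, which leaves the genotypes unchecked by the targeted gene. The comparison asks which transcripts differ without CTCFL before the testis degenerates, which the study places after this age.

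Microtubules are polymers of alpha- and beta-tubulin, nucleated by gamma-tubulin, while delta- and epsilon-tubulin belong to centrioles and basal bodies. Germ cells build several microtubule structures in turn, among them the meiotic spindles, the manchette that shapes the spermatid nucleus, and the axoneme of the flagellum. TTL adds back the terminal tyrosine of alpha-tubulin, and its relatives, the TTLL enzymes, attach glutamate (glutamylases) or glycine (glycylases) to tubulin tails, modifications that are abundant on axonemes.

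Values are log2 levels per probe set as deposited. A level depends on the probes, so levels were compared between arrays and never between genes. Array medians lay between 6.40 and 6.45, and 28 of the 77 member probe sets were below the array median on all 8 arrays. Among the arrays, wildtype replicate 7 and mutant replicate 8 lay far from the remaining 6, with scores of 40.2 and 38.2 on the first principal component against -24.8 to -3.10, so the counts and most differences are also given without both. No label names a cause for this, and the pair was defined from expression. Spermatocyte markers had list means of 10.7 to 10.9 and Sertoli markers of 8.98 to 9.24 across the arrays, as a check of the tissue label. For each gene 1 main probe set was chosen by rule, and the genes given with all 8 values are named by rule too, unless stated. Wildtype values are always listed in the order of replicates 1, 2, 4, 6 and 7, and mutant values in the order of 3, 5 and 8.

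In the comparison of genotypes no tubulin or TTLL probe set passed the adjusted threshold. With limma, 0 of the 77 had an adjusted p under 0.05, as did 0% of all 45101 probe sets, with 1.0 as the lowest adjusted p. Unadjusted, at p under 0.05, 1 member probe set was higher in mutant testis (1.30% of members, against 1.76% of all probe sets) and 3 were lower (3.90%, against 1.70%). A one-way comparison without shared variance gave 0 members after adjustment and 3 before it. The 5 wildtype values lay clear of the 3 mutant values for 2 member probe sets that were higher in mutant (1.38% of all probe sets) and 2 that were lower (1.31% of all). The median difference, mutant minus wildtype, was -0.0012 on the log2 scale over the members and 0.0032 over all probe sets. Without the pair of arrays that stood apart, these medians were -0.050 and -0.0024. At an unadjusted p under 0.05, 0 member probe sets were then higher in mutant testis and 5 were lower. The share over all probe sets was not counted for that fit, so these counts are not read as a direction of the members. The groups then did not overlap for 11 member probe sets, against 14.9% of all, and for 9, against 11.5% of all, when mutant replicate 8 alone was left out. The smallest p of the exact two-sided permutation test is 0.0357 for 5 against 3 arrays. Any probe set without overlap has this p, so below it only restates the lack of overlap. Over the 16 named genes other than Ttll11 the exact p lay between 0.286 and 1.0. In bulk RNA, fewer cells of a type and less RNA per cell cannot be told apart.

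**Figure D1:**
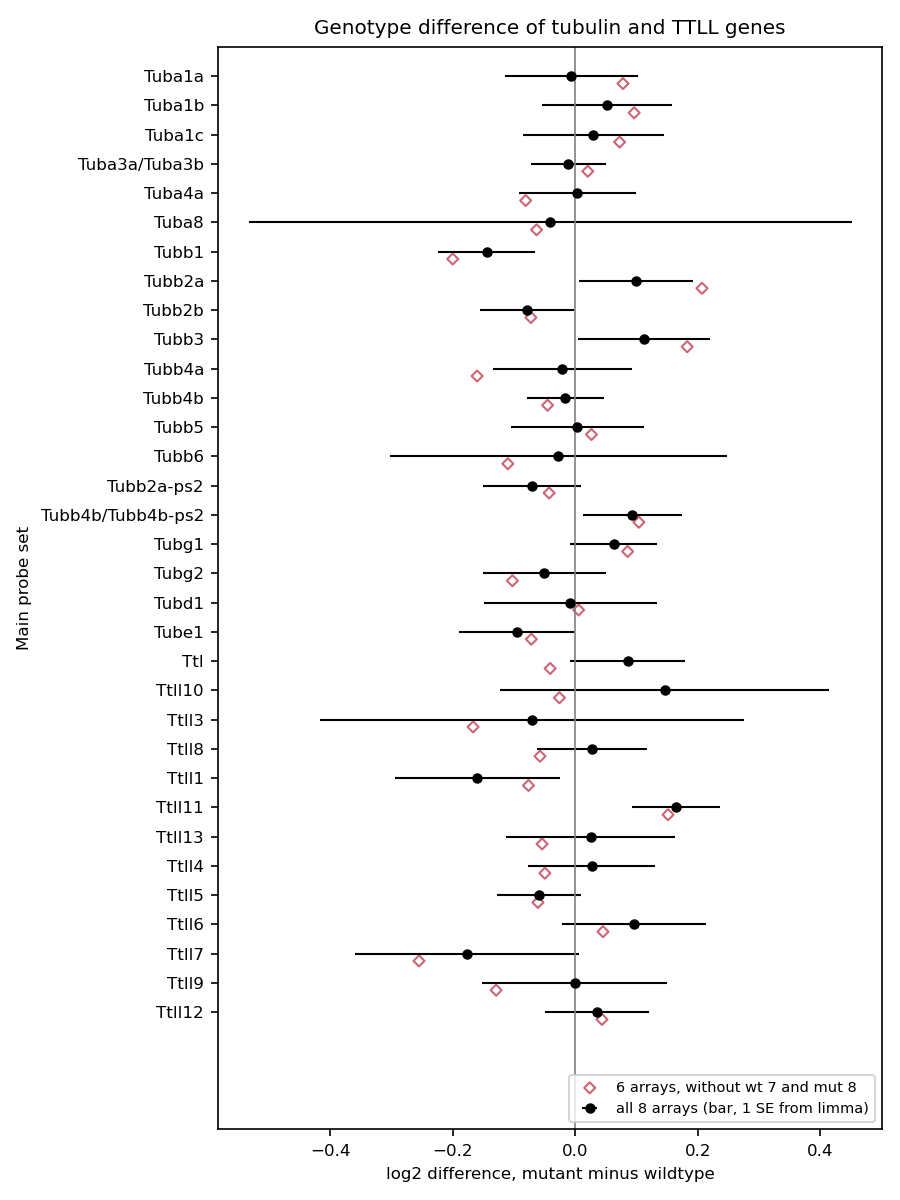
Difference in log2 level, mutant minus wildtype, for the 33 main probe sets (points, all 8 arrays; bars, 1 standard error from limma; open diamonds, the 6 arrays without wildtype replicate 7 and mutant replicate 8). Main differences lie between -0.18 for Ttll7 and 0.16 for Ttll11, and the widest bars belong to Tuba8, Ttll3, Tubb6 and Ttll10.

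Among alpha-tubulins, the testis isotypes TUBA3A and TUBA3B, whose transcripts share probes, varied least. Their main probe set had levels of 14.33, 14.31, 14.27, 14.38 and 14.33 in wildtype and 14.34, 14.35 and 14.25 in mutant testis. Whether the arrays still register a change at such high levels was not tested. The 8 values spanned 0.13, the 2 genotypes overlapped, and the difference was -0.011 (SE 0.06, limma adjusted p = 1.0), or 0.02 without the pair. Tuba1a, Tuba1b and Tuba1c, alpha-tubulins of most dividing cells, differed between genotypes by -0.0062, 0.05 and 0.03, or by 0.08, 0.10 and 0.07 without the pair. Each had its 2 lowest levels on wildtype replicate 7 and mutant replicate 8. Each was read from 1 probe set whose suffix marks probes that may bind other transcripts, so the 3 may share signal.

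Tuba8, a divergent alpha-tubulin, had the widest range of the 33 main probe sets. It measured 6.21, 6.10, 6.54, 6.42 and 8.32 in wildtype and 6.25, 6.25 and 7.52 in mutant testis. The 2 high values were those of wildtype replicate 7 and mutant replicate 8, so the range was 2.22 over 8 arrays and 0.44 over the other 6. The genotype means were 6.72 ± 0.91 (SD, n = 5) and 6.68 ± 0.73 (SD, n = 3), with a difference of -0.041 (SE 0.49), or -0.063 without the pair. A second Tuba8 probe set, 1446771_at, which was looked at after its values were seen, did not share the high values. It read 4.92, 4.86, 5.17, 5.15 and 4.91 in wildtype against 4.83, 4.86 and 4.76 in mutant testis, all below the array medians. These groups did not overlap, with 4.856 in mutant against 4.864 in wildtype as the nearest values, and the difference was -0.19 (SE 0.09, limma p = 0.0617 and adjusted p = 1.0; exact permutation p = 0.0357), with the same value without the pair.

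Tuba4a, an alpha-tubulin made without the terminal tyrosine, gave different patterns by probe set and was also looked at after its values were seen. Probe set 1417373_a_at measured 8.39, 8.45, 8.35, 8.55 and 9.34 in wildtype and 8.27, 8.60 and 9.03 in mutant testis. Probe set 1417374_at measured 7.70, 7.61, 7.73, 7.85 and 8.42, and 7.70, 7.90 and 8.21. The main probe set, 1417375_at, measured 7.996, 7.83, 8.16, 8.07 and 7.77, and 7.94, 7.93 and 8.04. Thus the first pair of probe sets had its highest levels on wildtype replicate 7 and mutant replicate 8, and the main one had its lowest on wildtype replicate 7. No genotype difference of the 3 exceeded 0.08.

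Among beta-tubulins, Tubb4b, the isotype of axonemes, was as even as Tuba3a and Tuba3b. Its own probe set had levels of 13.37, 13.30, 13.37, 13.41 and 13.40 in wildtype and 13.33, 13.30 and 13.43 in mutant testis. Groups overlapped within a range of 0.13, and the difference was -0.016 (SE 0.06), or -0.045 without the pair. Here too the response of the arrays at such high levels was not tested. Tubb6, a beta-tubulin expressed widely, measured 8.45, 8.73, 8.34, 8.36 and 9.41 in wildtype and 8.58, 8.14 and 9.17 in mutant testis. As for Tuba8, wildtype replicate 7 and mutant replicate 8 were highest, and its second probe set ordered them in the same way, at 5.98 and 5.97 against 5.35 to 5.83 on the others. The genotype difference of Tubb6 was -0.028 (SE 0.28), or -0.11 without the pair.

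Tubb3, known as the neuronal beta-tubulin and also made by Sertoli cells, went the other way. It measured 8.54, 8.46, 8.42, 8.32 and 8.23 in wildtype and 8.74, 8.50 and 8.29 in mutant testis. The 2 arrays were lowest here, the genotypes overlapped, and the difference was 0.11 (SE 0.11), or 0.18 without the pair. The remaining beta-tubulin genes Tubb1, Tubb2a, Tubb2b, Tubb4a and Tubb5 differed between genotypes by -0.14 to 0.10 in their main probe sets, and the main probe sets of the first 4 were below all array medians.

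There were 5 probe sets that match Tubb4b and its pseudogene Tubb4b-ps2 together, and 1 of them gave the smallest p of all members. Probe set 1456470_x_at, singled out for this, measured 8.08, 8.01, 8.25, 8.13 and 8.05 in wildtype and 7.94, 7.61 and 7.84 in mutant testis. All 3 mutant values were below all 5 wildtype values, with means of 7.80 ± 0.17 (SD, n = 3) and 8.10 ± 0.09 (SD, n = 5). The difference was -0.30 (SE 0.09, limma p = 0.00694 and adjusted p = 1.0; exact permutation p = 0.0357), and -0.34 without the pair. The suffix of its name marks probes that may bind other transcripts. Of the 4 further joint probe sets, 1438622_x_at differed by -0.19 (SE 0.08, limma p = 0.0363 and adjusted p = 1.0; exact permutation p = 0.0714), and the others by -0.097, -0.060 and 0.09. Without the pair 1438622_x_at differed by -0.23. With the probe set of Tubb4b alone at -0.016, the joint probe sets and the gene-specific one did not give 1 value.

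Tubg1, the main gamma-tubulin of the microtubule organising centre, measured 8.40, 8.39, 8.28, 8.32 and 8.21 in wildtype and 8.43, 8.43 and 8.28 in mutant testis. The groups overlapped, and the difference was 0.06 (SE 0.07), or 0.09 without the pair. Tubd1, the delta-tubulin of centriole triplets, measured 9.23, 8.96, 9.34, 9.36 and 8.80 in wildtype and 9.18, 9.28 and 8.93 in mutant testis. Wildtype replicate 7 and mutant replicate 8 were lowest, and the difference was -0.0079 (SE 0.14), or 0.0054 without the pair. Tube1, the epsilon-tubulin, had 1 probe set of 3 under the unadjusted threshold, 1437942_x_at at -0.24 (SE 0.10, limma p = 0.0390 and adjusted p = 1.0; exact permutation p = 0.0714), while the main one was at -0.096. Without the pair these were -0.28 and -0.072.

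**Figure D2:**
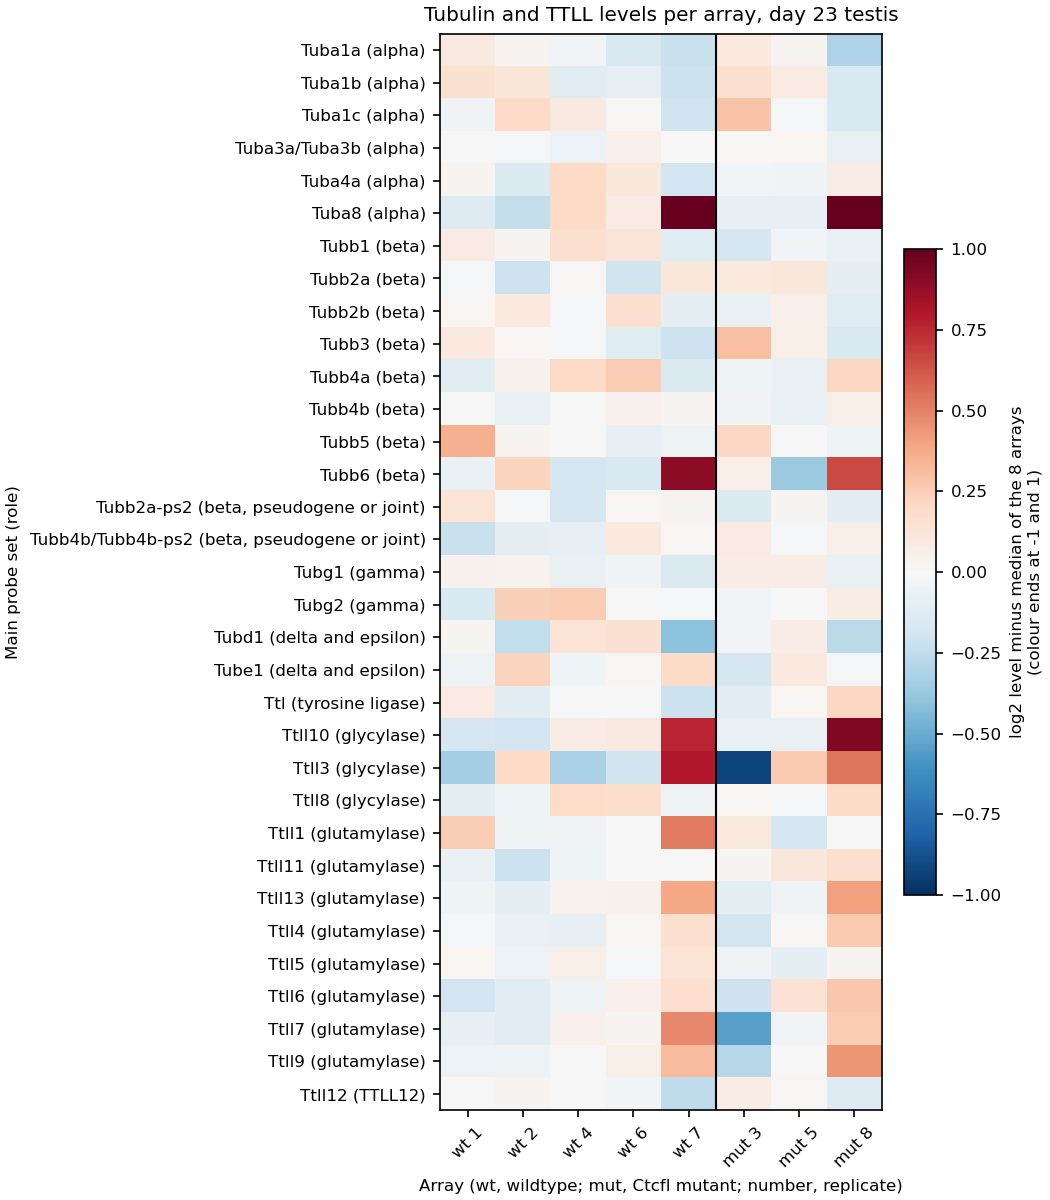
Log2 level of each of the 33 main probe sets on each array, minus the median of its 8 levels, ordered by role (columns, the 5 wildtype and 3 mutant arrays; colour ends at -1 and 1, which Tuba8 exceeds). The warmest cells lie in the columns of wildtype replicate 7 and mutant replicate 8, in the rows of Tuba8, Tubb6, Ttll3 and Ttll10.

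The 2 arrays that lay far from the rest were then read against the other 6. Both wildtype replicate 7 and mutant replicate 8 lay above all other arrays for 24 of the 77 member probe sets, or 31.2%, where 8.60% of all probe sets did so. Both lay below all others for 9 of them, or 11.7%, against 10.3% of all probe sets. Genes with several probe sets weigh more in these counts, and Ttll10 alone gave 7 of the 24. Counted by main probe set, 27.3% of members had both above and 21.2% had both below. The shares over all probe sets were not counted per gene. Of the 41 TTL and TTLL probe sets, 19 had the pair highest and 2 had it lowest, and of the 36 tubulin probe sets the counts were 5 and 7. By main probe set, 5 of 8 glutamylases and 2 of 3 glycylases had the pair highest and none lowest. Of the 6 alpha-tubulins, 3 had it lowest and 1, Tuba8, highest. Those 3 were Tuba1a, Tuba1b and Tuba1c, whose probe sets may share signal. The median range over the 8 arrays was 0.41 for members and 0.38 for all probe sets, and without the pair 0.32 and 0.31.

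Spermatid and fat markers were high on the same 2 arrays, whereas other marker lists were not. Of 15 spermatid markers 13 had the pair highest, and the mean level of the list was 10.7 and 10.4 there against 8.69 to 9.30 on the other arrays. The protamine gene Prm1, for example, stood at 12.1 and 11.6 against 8.14 to 9.41. Of 5 measured fat markers 4 had the pair highest, with list means of 7.16 and 7.07 against 5.03 to 5.81, and Lep, the remaining one, lay between 3.82 and 4.05 on all arrays. In other lists the pair was lowest for 3 of 5 peritubular, 2 of 7 spermatogonia and 1 of 7 Leydig markers, and highest for 0 of them. Of 9 spermatocyte markers 1 had the pair highest and 1 had it lowest. For 0 of the Sertoli, epididymal and nerve markers was the pair at either end. The part of spermatid and fat transcripts in the levels of Tuba8, Tubb6 and the TTLL genes was not tested.

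Among the glycylases, Ttll10 lengthens glycine chains begun by other enzymes. Its main probe set measured 6.95, 6.93, 7.19, 7.21 and 7.88 in wildtype and 7.04, 7.04 and 8.05 in mutant testis. The pair of arrays was highest for all 7 Ttll10 probe sets. Over these, wildtype replicate 7 exceeded the mean of the other wildtype arrays by 0.35 to 1.10, and mutant replicate 8 exceeded the mean of the other mutant arrays by 0.35 to 1.73. The main difference between genotypes was 0.15 (SE 0.27) and changed sign to -0.026 without the pair.

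**Figure D3:**
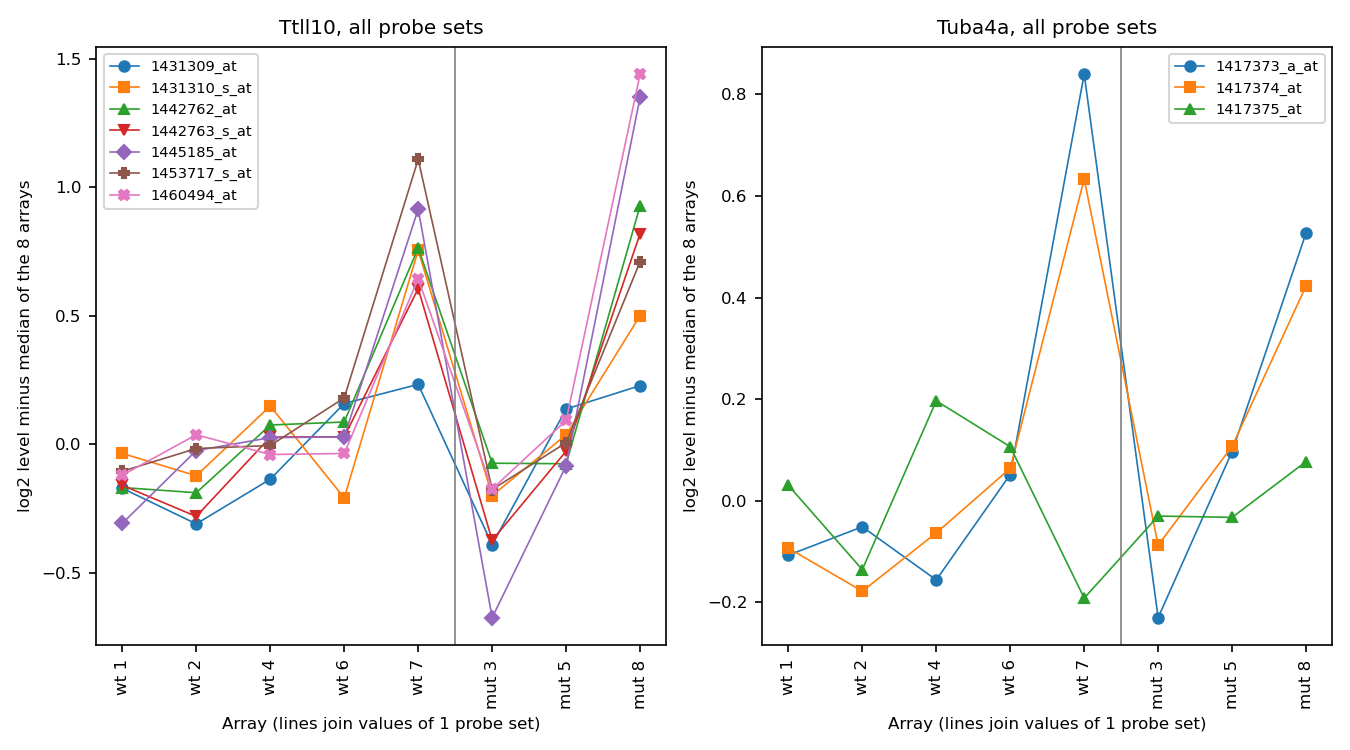
Log2 level minus the median of the 8 arrays, for the 7 probe sets of Ttll10 (left) and the 3 of Tuba4a (right), by array. All 7 Ttll10 lines peak on wildtype replicate 7 and mutant replicate 8, whereas 1 Tuba4a probe set, 1417375_at, does not.

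Ttll3, which with TTLL8 begins glycine chains, measured 7.26, 7.80, 7.28, 7.41 and 8.41 in wildtype and 6.68, 7.87 and 8.14 in mutant testis. The pair was highest and mutant replicate 3 was lowest, so the mutant SD of 0.78 (n = 3) exceeded the difference of -0.071 (SE 0.35), which was -0.17 without the pair. Ttll8 measured 12.06, 12.10, 12.33, 12.32 and 12.09 in wildtype and 12.17, 12.12 and 12.33 in mutant testis. Unlike the other glycylases it did not set the pair apart, since wildtype replicate 7 was near the lowest values and mutant replicate 8 was highest. Its difference was 0.03 (SE 0.09), or -0.058 without the pair.

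Of the glutamylases, Ttll9, an enzyme of the sperm flagellum, measured 9.18, 9.19, 9.25, 9.30 and 9.56 in wildtype and 8.96, 9.24 and 9.69 in mutant testis. Ttll7, which acts on beta-tubulin, measured 6.32, 6.28, 6.45, 6.43 and 6.88, and 5.86, 6.37 and 6.66. Ttll13 measured 9.59, 9.53, 9.66, 9.67 and 10.01, and 9.53, 9.59 and 10.04. All 3 genes were highest on the pair, and their differences were -0.0012 (SE 0.15), -0.18 (SE 0.18) and 0.03 (SE 0.14). Without the pair these were -0.13, -0.26 and -0.054. Mutant replicate 3 was the lowest array for 6 of the 12 main probe sets of TTLL genes, Ttll3, Ttll7 and Ttll9 included, against 12.2% of all probe sets. Over all 33 main probe sets it was lowest for 8, these 6 included.

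**Figure D4:**
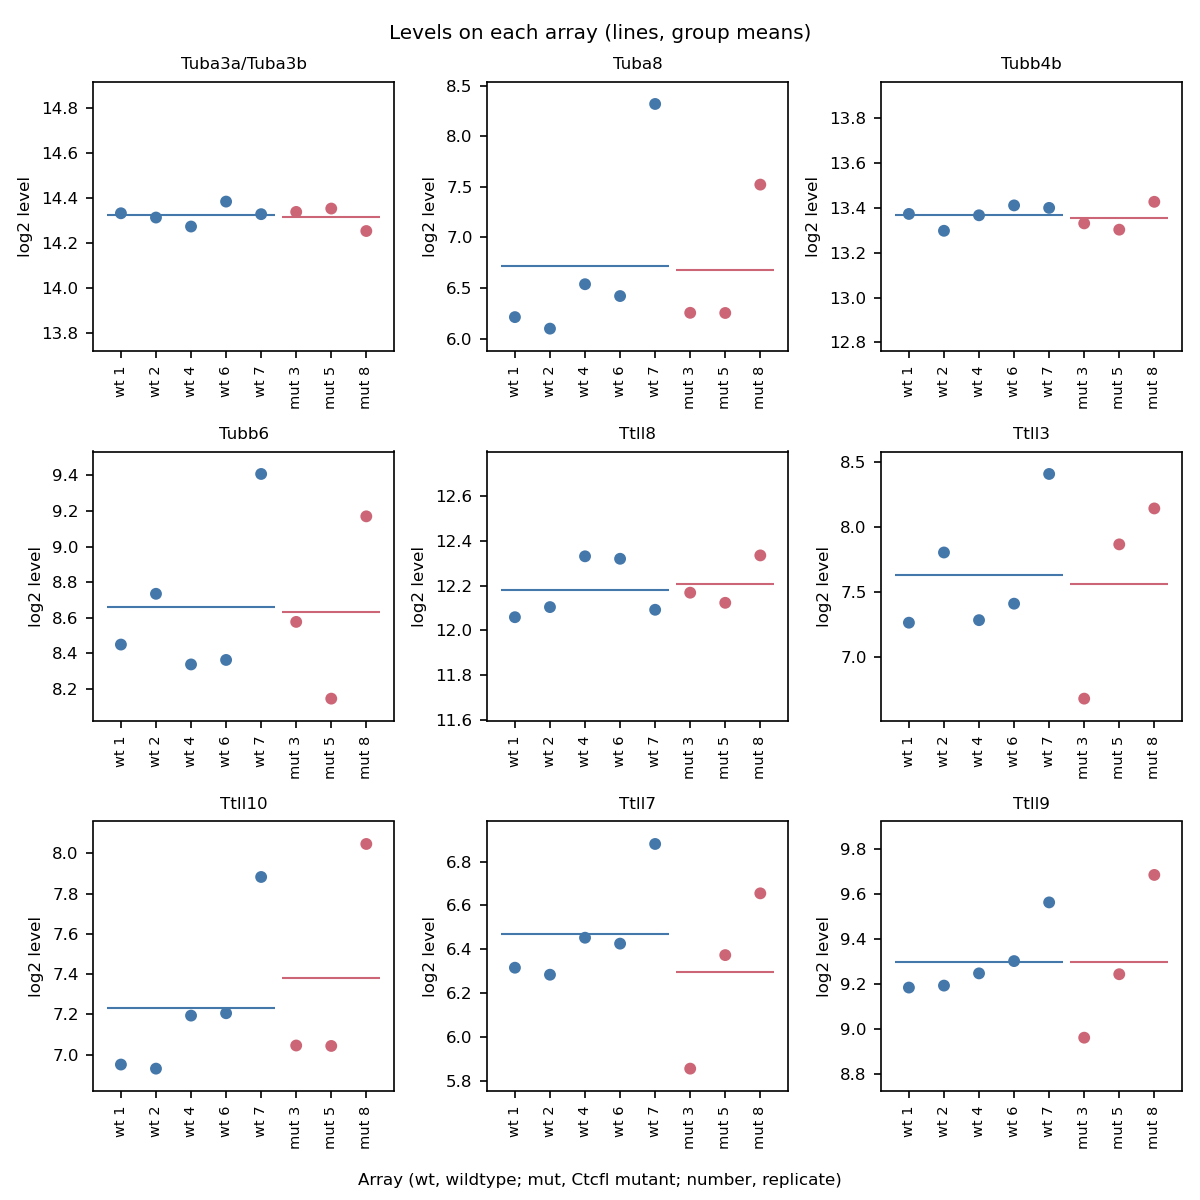
Log2 level on each array for 9 genes (points; blue, 5 wildtype arrays; red, 3 mutant arrays; lines, group means; vertical scales differ). Tuba3a/Tuba3b, Tubb4b and Ttll8 stay within 0.28, and the other 6 genes are highest on wildtype replicate 7 and mutant replicate 8.

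Ttll1, the catalytic subunit of a glutamylase complex, was high on wildtype replicate 7 alone of the pair. It measured 8.99, 8.69, 8.71, 8.74 and 9.26 in wildtype and 8.84, 8.57 and 8.74 in mutant testis. The difference of -0.16 (SE 0.13) was -0.076 without the pair. Ttll5, a glutamylase needed for sperm movement, measured 11.12, 11.03, 11.15, 11.07 and 11.23 in wildtype and 11.06, 11.00 and 11.12 in mutant testis, a difference of -0.059 (SE 0.07), or -0.061 without the pair. A second Ttll5 probe set, 1431279_s_at, gave the opposite sign and no overlap, at 10.87, 10.78, 10.87, 10.90 and 10.89 against 10.91, 10.92 and 11.05. Its difference was 0.10 (SE 0.07, limma p = 0.172 and adjusted p = 1.0; exact permutation p = 0.0357), or 0.06 without the pair, so no direction is given for Ttll5.

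Ttll11, a glutamylase that makes long chains, was the 1 main probe set under the unadjusted threshold. It measured 9.16, 9.01, 9.18, 9.22 and 9.23 in wildtype and 9.25, 9.34 and 9.38 in mutant testis. All mutant values were above all wildtype values, with 9.25 against 9.23 as the nearest, and the difference was 0.16 (SE 0.07, limma p = 0.0457 and adjusted p = 1.0; exact permutation p = 0.0357). Without the pair it was 0.15. The exact p follows from the lack of overlap and adds nothing to it. The other 3 Ttll11 probe sets differed by 0.01, -0.16 and -0.085, so the direction rests on 1 probe set of 4.

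**Figure D5:**
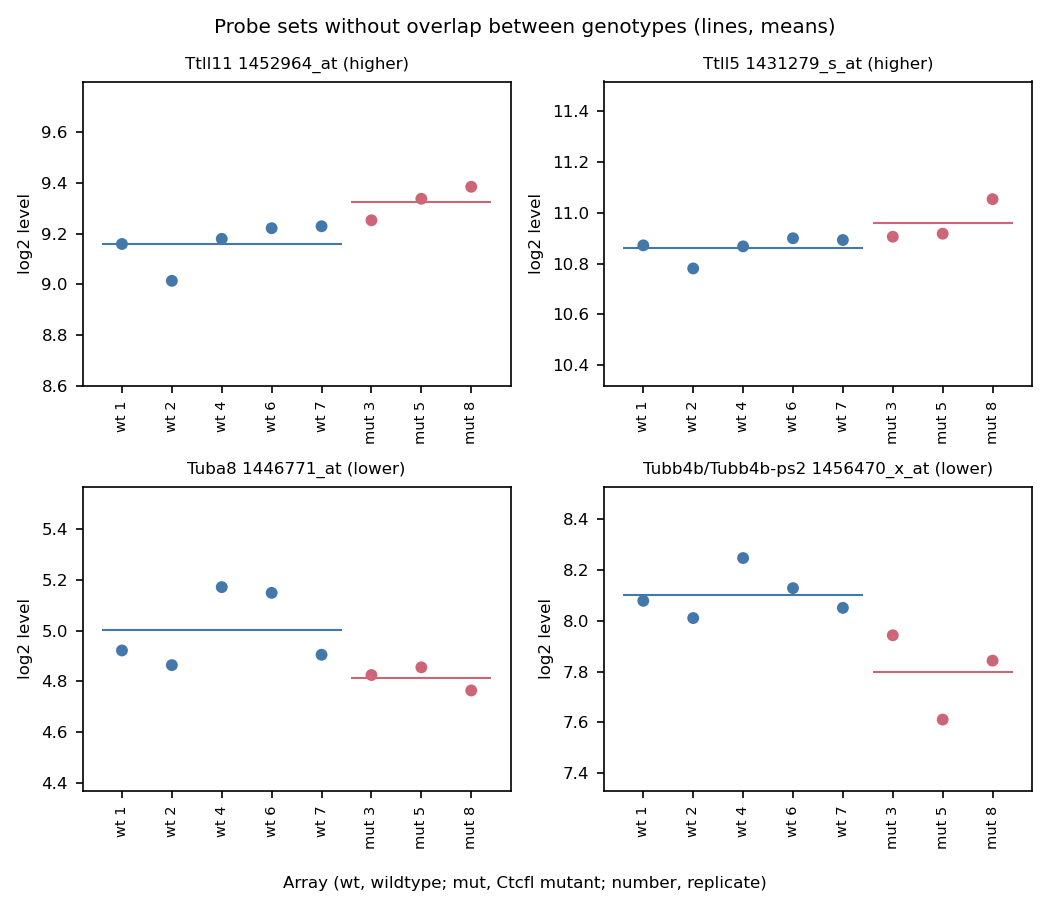
Log2 level on each array for the 4 member probe sets without overlap between genotypes (points; blue, wildtype; red, mutant; lines, group means). Probe sets of Ttll11 and Ttll5 are higher in mutant, and those of Tubb4b with Tubb4b-ps2 and of Tuba8 are lower, by 0.10 to 0.30.

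Ttl, the tyrosine ligase itself, measured 5.84, 5.64, 5.76, 5.76 and 5.55 in wildtype and 5.64, 5.78 and 5.97 in mutant testis. Its 5 probe sets overlapped between genotypes, with differences of -0.036 to 0.09, and 4 of them were below all array medians. The main one changed from 0.09 (SE 0.09) to -0.041 without the pair. Ttll12, a member with no settled activity, differed by 0.04 (SE 0.08) and had the pair lowest.

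Some markers of germ and somatic cells differed between genotypes at the unadjusted threshold too. In the spermatogonia list 2 of 7 genes were higher in mutant, Gfra1 by 0.35 and Uchl1 by 0.26, and in the spermatocyte list 2 of 9 were lower, Sycp1 by 0.25 and Hormad1 by 0.19. Among somatic lists, 1 of 7 Leydig markers (Star, by 0.50), 1 of 8 Sertoli markers (Fshr, by 0.18) and 1 of 4 epididymal markers (Lcn5, by 0.19 and without overlap) were higher. Gfra1 and Lcn5 were below all array medians. Of the other epididymal markers, Lcn8 differed by -0.16 and Defb1 by 0.09. Crisp1 stood at 5.82 on wildtype replicate 1 and 6.38 on mutant replicate 8, against 3.17 to 3.34 on the other arrays. Over all probe sets 1.76% were higher and 1.70% lower at that threshold. The adjusted p of these markers was 1.0, and their part in the differences of Ttll11 and the joint Tubb4b probe set was not tested.

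The promoter windows of 3 of the genes with the pair highest are shown as examples, picked by hand and not by a rule. They are RefSeq windows on GRCm38.p6 from 250 bases before to 50 after the annotated start, printed along the gene's strand, and windows were found for 27 member genes. Capitals mark motif letters found on either strand: TGACG, a part of the CRE, the element bound by CREM in spermatids, GTTGCCA, a part of the X-box bound by RFX factors, and AGGGGGC, the core of the CTCF motif.
Tuba8 (chr6:121210484-121210783, plus strand): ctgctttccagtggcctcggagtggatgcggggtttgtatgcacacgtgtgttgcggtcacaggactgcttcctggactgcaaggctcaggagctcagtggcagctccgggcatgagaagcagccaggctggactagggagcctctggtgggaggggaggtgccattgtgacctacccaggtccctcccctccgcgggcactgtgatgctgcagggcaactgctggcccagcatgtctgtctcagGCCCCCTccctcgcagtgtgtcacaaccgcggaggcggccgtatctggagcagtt
Ttll10 (chr4:156050768-156051067, minus strand): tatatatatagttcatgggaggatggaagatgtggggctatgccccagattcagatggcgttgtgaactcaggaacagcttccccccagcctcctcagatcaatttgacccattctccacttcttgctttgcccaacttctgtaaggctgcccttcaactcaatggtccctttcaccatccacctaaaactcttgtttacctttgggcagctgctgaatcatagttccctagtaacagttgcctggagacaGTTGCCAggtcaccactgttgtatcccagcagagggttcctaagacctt
Ttll9 (chr2:152962235-152962534, plus strand): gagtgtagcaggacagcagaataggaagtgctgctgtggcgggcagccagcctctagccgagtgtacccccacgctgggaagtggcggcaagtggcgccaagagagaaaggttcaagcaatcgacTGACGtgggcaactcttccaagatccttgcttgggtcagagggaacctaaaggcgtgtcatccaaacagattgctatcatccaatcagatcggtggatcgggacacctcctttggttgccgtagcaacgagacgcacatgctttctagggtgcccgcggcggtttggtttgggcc
The 3 windows hold a different exact match each, AGGGGGC read on the reverse strand in Tuba8, GTTGCCA in Ttll10 and TGACG in Ttll9. Only exact letters were sought, so near matches, such as gttgccg in the Ttll9 window, are not marked or counted. Over all 32851 windows, 20.8% hold TGACG, 4.38% hold GTTGCCA and 10.6% hold AGGGGGC. Of the 27 member genes 8 hold TGACG, 1 holds GTTGCCA and 6 hold AGGGGGC. The full CRE, TGACGTCA, which contains TGACG, is in 1.79% of all windows and in that of 1 member, Tubb2a. The windows of Ttll3, Ttll7 and Ttll4, which also had the pair highest, hold none of these letters. Those of Ttll6 and Ttll13, with the pair highest too, hold AGGGGGC. So do those of Ttll8, Tuba1b and Tuba1c, whose main probe sets did not have the pair highest.

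Other genes of tubulin metabolism were read from 6 lists that held 52 genes, of which 46 were measured. They comprise chaperones and folding cofactors, the gamma-tubulin complex, the TTLL1 complex, enzymes that remove glutamate, enzymes of detyrosination and acetylation, and severing enzymes. At an unadjusted p under 0.05, 3 were higher in mutant testis, where 1.76% of all probe sets were, and 0 were lower, against 1.70% of all. The median difference was -0.00145. Cct3, a subunit of the chaperonin that folds tubulin, differed by 0.32 (SE 0.10), Hdac6, the tubulin deacetylase, by 0.20 (SE 0.07), and Fign, a severing enzyme, by 0.22 (SE 0.09), with limma adjusted p of 1.0 for all. Without the pair these were 0.35, 0.19 and 0.22. Each of these genes was read from 1 probe set. That of Cct3 lay at 6.54 to 6.94 in wildtype and 7.06 to 7.16 in mutant testis. Whether it reports the main Cct3 transcript was not tested. That of Fign lay at 4.26 to 4.61 in wildtype and 4.54 to 4.67 in mutant testis, below all array medians. The groups did not overlap for Cct3 and Hdac6, 2 of the 46 genes, against 1.38% of all probe sets higher without overlap. The pair of arrays was highest for 6 of the 46 genes and lowest for 4, where it was highest for 8.60% and lowest for 10.3% of all probe sets. Among the former was Vash2, a carboxypeptidase that removes the tyrosine, at 9.46 and 9.49 against 8.29 to 8.95, together with Agbl3, Agbl5, Atat1, Sirt2 and Spast.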

How the data were processed

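Total RNA of day 23 testes, from 5 samples labelled wildtype and 3 labelled mutant, was labelled as biotinylated cRNA from 5 µg and hybridised to Affymetrix Mouse430_2 arrays. The authors applied RMA in R, and the deposited table holds 1 log2 level per probe set and array, used as deposited without a filter. The deposited group means, fold changes and p-values of the authors' own comparisons, and 2 further tables of them, were not used. Members and gene lists were chosen with earlier results of these data known.

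With limma 3.58.1 in R 4.3.3, lmFit and eBayes were run on all 45101 probe sets. Tests were two-sided and p-values were adjusted over the whole table after Benjamini and Hochberg. The fit was tested on simulated data. Single values had an exact two-sided permutation test over the 56 splits (scipy 1.17.1). Nothing says that samples of a group came from separate animals, so p-values measure the spread between these samples. The main probe set of a gene matches 1 gene where possible, then has no suffix, then has the highest mean. Named genes were main probe sets under an unadjusted p of 0.05 or without overlap, the 10 with the widest range, and the highest in each role. Alternatives were leaving out arrays, the pair as a block, other scalings, variance models, thresholds, array weights and other probe sets. The build of the array annotation is not given in the sources used here. Windows and names came from RefSeq (GRCm38.p6). The number of arrays limits the precision.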

Additional observations from a re-analysis of the deposited data

Results flagged for a closer look

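For 6 of the 33 main probe sets 1 wildtype array lay far from the other 4, by Dixon's ratio for 5 samples (critical value 0.71). Chance flags about 1 in 20 such groups, or 1.65 of 33 if they were independent. The 33 share the same arrays, so they are not independent and the 6 cannot be set against that number. Of the 6 flags 5 fell on wildtype replicate 7, an array already known to stand apart in these same levels. On wildtype replicate 7, Tuba8 stood at 8.32 (nearest other 6.54), Ttll13 at 10.01 (9.67), Ttll7 at 6.88 (6.45) and Ttll10 at 7.88 (7.21), all above. On the same array Ttll12 stood below, at 8.09 against 8.31. On wildtype replicate 1, Tubb5 stood at 9.12 against 8.79.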

How the results depend on the processing

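Each of the 17 named genes was read under 16 to 22 alternatives, which made 297 pairs of gene and alternative. None of these pairs had an adjusted p under 0.05, the lowest limma value being 0.792. The alternatives are not independent, and those that change only the variance model leave the difference as it was. Only Tubg1 and Ttll1 kept their sign throughout. Leaving out each array in turn, the number of member probe sets at an unadjusted p under 0.05 (4) ran from 1 to 4, the number without overlap (4) from 4 to 9 and the median difference from -0.062 to 0.035. The count was 1 without wildtype replicate 4 or mutant replicate 5, and 2 without wildtype replicate 6 or mutant replicate 3. It was 1 with 1 probe set per gene and 1 at a threshold of 0.01. Without both arrays that stood apart, 11 did not overlap and the median was -0.050. Leaving out single arrays, differences ran from -0.031 to 0.02 for Tuba3a/Tuba3b, -0.46 to 0.36 for Tuba8, -0.053 to 0.0090 for Tubb4b, -0.0043 to 0.22 for Tubb3, -0.30 to 0.21 for Tubb6, -0.093 to 0.090 for Tubd1, 0.036 to 0.11 for Tubg1, -0.22 to -0.064 for Ttll1, 0.13 to 0.20 for Ttll11, -0.088 to -0.030 for Ttll5, -0.13 to 0.12 for Ttll13, -0.36 to 0.043 for Ttll7, -0.20 to 0.17 for Ttll9, -0.19 to 0.31 for Ttll10, -0.36 to 0.37 for Ttll3, -0.035 to 0.070 for Ttll8 and -0.00021 to 0.16 for Ttl. Without both arrays, signs turned for Tuba3a/Tuba3b (0.020), Tubd1 (0.0054), Ttll13 (-0.054), Ttll10 (-0.026), Ttll8 (-0.058) and Ttl (-0.041). With the pair as a block they turned for Tubd1 (0.041) and Ttll13 (-0.033), with array weights for Tuba3a/Tuba3b (0.0027), Tubd1 (0.023), Ttll13 (-0.014) and Ttll8 (-0.015), and with repeated quantile normalisation for Tubb4b (0.0047). Another probe set of the gene turned the sign for Tuba3a/Tuba3b (0.011), Ttll9 (0.0091), Ttll5 (0.096), Ttll8 (-0.0027), Ttll11 (-0.16 and -0.085), Ttl (-0.036), Ttll3 (0.097) and Ttll10 (-0.052). The cause was not tested. No paired analysis was possible because replicate numbers of the labels run through both genotypes without repeats.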
